A study of Mus musculus with 40 samples.

Results

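The genes described here encode the mitochondrial respiratory chain and the ATP synthase, the machinery of oxidative phosphorylation. They were taken from the deposited expression table by name: symbols that start with Nduf, Uqcr, Sdh (a to d), Cox4 to Cox8 or Atp5, with the most abundant transcript of each symbol. Of 92 such symbols, 74 reached 20 tags per 10 M (10000000) tags of the library in 2 or more polyA RNA-Seq libraries, out of 10692 genes that did so and 22865 genes in the table. The 74 hold 33 genes of complex I, 4 of complex II, 7 of complex III, 11 of complex IV, 10 of the ATP synthase and 9 that the name rule admits but that are no subunit of an enzyme. In 72 of the 74 the level of 20 was reached in all 6 RNA-Seq libraries, in Cox5b in 5 and in Atp5s in 4.

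The chain passes electrons from NADH (complex I) and succinate (complex II) to ubiquinone, then through complex III and cytochrome c to oxygen at complex IV, and complexes I, III and IV pump protons across the inner mitochondrial membrane. The ATP synthase lets these protons back and makes ATP. Complex II is also succinate dehydrogenase of the citric acid cycle. Macrophages stimulated through Toll-like receptor 4 are known to shift their energy supply from oxidative phosphorylation towards glycolysis.

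The cells were peritoneal macrophages of C57BL6/J and BALBc/J mice, 2 inbred strains, collected after thioglycollate injection, kept overnight in culture and either treated with 100 ng/ml Kdo2-lipid A (KLA), a Toll-like receptor 4 agonist, or given fresh medium alone. PolyA RNA-Seq covered KLA for 1 hr, KLA for 4 hr and no treatment in both strains. GRO-Seq, which sequences RNA as it is being transcribed, covered KLA for 1 hr and no treatment. ChIP-Seq peaks were called for the macrophage factors PU.1 and C/EBPa and the marks H3K4me2 and H3K27Ac with KLA for 1 hr and with no treatment, and for the NF-kB subunit p65 with KLA for 1 hr. Each combination of strain, treatment and assay had a single library, p65 having 2 per strain, and no label says which libraries came from separate animals.

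The RNA-Seq libraries held 17.0 to 20.3 M tags (M, 10 to the power of 6), of which 88.7 to 90.6% lay in exons, and the GRO-Seq libraries 39.4 to 48.3 M, of which 7.39 to 9.83% did. In the summed level of 7 macrophage markers the RNA-Seq libraries lay between 77849 and 105650 tags per 10 M, and none of the 7 was at 0. The sum of 8 mesothelial and fibroblast markers was 1751 to 2696 tags per 10 M in the C57BL6/J and 3711 to 4292 in the BALBc/J libraries, with none at 0, and 5 of the 8 were called lower in C57BL6/J (against 5.89% of all genes). Lymphoid markers (8 genes) summed to 49.5 to 280.7 tags per 10 M and granulocyte and mast cell markers (8 genes) to 108.7 to 345.9. Cd3e or Cd3g of T cells was at 0 in 5 of the 6 RNA-Seq libraries, and Ngp and Epx of granulocytes were at 0 in all 6. Other genes of the same lists were not. S100a8 was at 77.0 to 340.5 tags per 10 M in the 6 libraries. Lck was at 186 (C57BL6/J) and 234 (BALBc/J) after 4 hr of KLA, against 3.53 and 12.0 with no treatment. The part of other cell types in the results was not tested. In bulk RNA, fewer cells of a type and less RNA per cell cannot be told apart.

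Levels between genes were compared in untreated cells per kb of transcript, as tags per 10 M per kb, with the C57BL6/J value given before the BALBc/J value. The comparison covers the 74 genes. Subunits that did not reach the level of 20 are left out, such as Ndufb4 of complex I, at 5.19 and 3.44. Among the 74, complex IV had the widest range among its own subunits. Cox4i1, the common form of the subunit 4 that regulates the complex, was at 6770 and 6015, the highest level of the 74 genes. Cox5b was at 44.5 and 43.9. In complex I the highest was Ndufa2, an accessory subunit, at 1995 and 1783, and the lowest Ndufa11 at 23.7 and 32.3. In complex III the iron-sulfur protein Uqcrfs1 was at 982 and 1216, and the small subunit Uqcr11 at 128 and 130. In the ATP synthase the epsilon subunit Atp5e was at 5443 and 4798, and the gamma subunit Atp5c1 at 114 and 129. The catalytic head of that enzyme is built of alpha and beta subunits, and both were high, Atp5a1 at 2222 and 2449 and Atp5b at 1960 and 2135. Complex II had the narrowest range. Its membrane anchors Sdhd and Sdhc were at 1383 and 1709 and at 1363 and 1518, the iron-sulfur subunit Sdhb at 960 and 950, and the flavoprotein Sdha at 717 and 707.

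**Figure D1:**
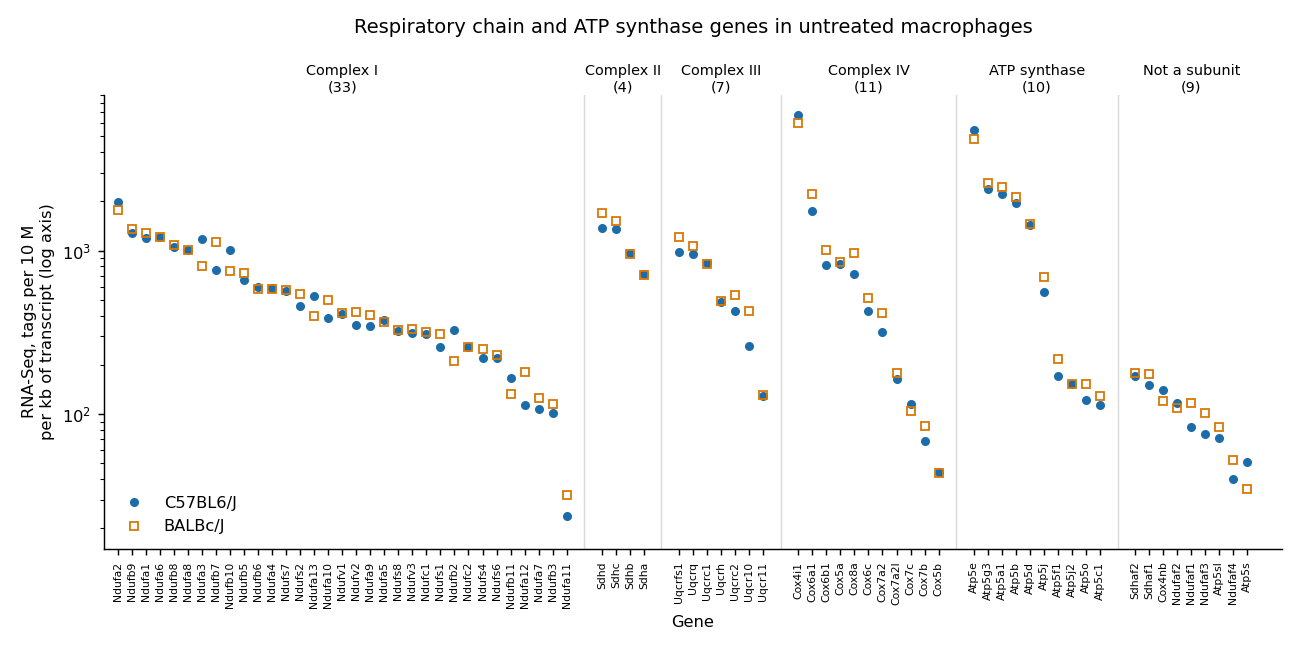
RNA-Seq level of each of the 74 genes in untreated cells (tags per 10 M per kb of transcript, log axis), by complex and ordered by level, with filled circles for C57BL6/J and open squares for BALBc/J, 1 library each. The 4 complex II genes sit between 707 and 1709, while complex IV runs between 43.9 and 6770, and the genes that are no subunit lie at the low end.

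Where a subunit has a form for most tissues and a form for muscle, lung or testis, RNA-Seq reads came mainly from the common form. Cox6a1 was at 1738 and 2214 tags per 10 M per kb, Cox6b1 at 816 and 1012, Cox7a2 at 320 and 415 and Cox8a at 718 and 964 in untreated C57BL6/J and BALBc/J cells. Of the tissue forms, Cox4i2, Cox8b, Cox7b2 and Cox8c had no exon tag in any RNA-Seq library, where 0 tags allow a level of up to 1.48 to 1.77 tags per 10 M (3 tags per library). Cox6a2, Cox6b2 and Cox7a1 stayed at 1.15 to 7.40 tags per 10 M in RNA-Seq. In GRO-Seq, however, Cox7a1 had 17.5 to 41.3 tags per 10 M and lay above Cox7a2 (11.1 to 32.1) in every library. Ndufa4l2, a relative of Ndufa4 known from hypoxia, had tags in 1 RNA-Seq library only, at 0.54 tags per 10 M. Ndufa4 itself, grouped here by name with complex I but also known as a subunit of complex IV, was at 591 and 586 tags per 10 M per kb. Of the 3 genes for the proton-carrying c subunit of the ATP synthase, whose mature proteins are identical, Atp5g3 was at 2377 and 2605 tags per 10 M per kb, whereas Atp5g1 lay at 7.48 to 17.8 and Atp5g2 at 0 to 3.12 tags per 10 M in the 6 RNA-Seq libraries.

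Another 8 subunits that every chain or synthase contains were also under the level of 20: Atp5h, Atp5k, Atp5l, Ndufab1, Ndufb4, Ndufs3, Ndufs5 and Uqcrb, at 1.56 to 15.7 tags per 10 M in the 6 RNA-Seq libraries. RefSeq's annotation names pseudogenes after 4 of these 8 (4 of Atp5k, 2 of Atp5l, 1 each of Ndufab1 and Ndufs5) and after 6 of the 74 genes. Those 6 (Atp5c1, Atp5f1, Cox5b, Cox7c, Ndufa12 and Uqcrh) had a median of 134 tags per 10 M per kb in untreated cells, against 466 for the other 68. The sources used here do not give the handling of tags that match several places. For that reason the levels of genes with copies elsewhere in the genome are uncertain.

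Mature RNA stood high over nascent RNA. In untreated cells the log2 ratio of the RNA-Seq level to the GRO-Seq exon level, each with 10 added, had a median of 3.70 in C57BL6/J and 3.94 in BALBc/J over the 43 genes that also passed the filter in GRO-Seq, against 2.04 and 2.20 over 8383 genes that passed in both assays. The other 31 of the 74 genes did not reach 20 tags per 10 M in 2 GRO-Seq libraries.

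At their promoters, the genes shared the marks of active transcription. A promoter here has a peak or region within 500 bases of the transcript start (mm9). H3K4me2, a mark of active and poised promoters and enhancers, was called at 74 of 74 promoters in 3 lists and at 73 in the other, 98.6 to 100%, against 93.7 to 93.9% of the 10692 genes. H3K27Ac, a mark of active ones, was called at 97.3 to 98.6%, against 83.6 to 86.3%. PU.1 was called at 81.1 to 83.8% of the promoters, against 67.9 to 69.1% of the 10692 genes, and C/EBPa at 45.9 to 56.8%, against 45.3 to 51.0%. Among the stronger 50% of each list, PU.1 was at 60.8% of the promoters in at least 1 list, against 53.5% of the 10692 genes. In every list it was at 35.1%, against 36.0%. C/EBPa was at 25.7% in at least 1 list, against 30.7%. These shares join several lists and cannot be set beside the shares of single lists above. The exact 95% binomial interval of a single list's share among the 74 was 71.8 to 90.3% for PU.1 in untreated C57BL6/J cells, where the share was 82.4%. These intervals cover counting error only, and no test was made of the shares. Between KLA for 1 hr and no treatment the number of promoters with PU.1 was 62 and 61 in C57BL6/J and 62 and 60 in BALBc/J.

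p65 after KLA for 1 hr was called at 45 and 49 of the 74 promoters in the C57BL6/J lists (60.8% and 66.2%, against 54.2% and 57.8% of the 10692 genes) and at 32 in both BALBc/J lists (43.2%, against 44.9% and 38.8%). The C57BL6/J lists were the longer ones, at 60505 and 60386 peaks, against 56977 and 47616 in BALBc/J, and both BALBc/J lists were called against C57BL6/J input, per the file headers. In all 4 p65 lists 19 of the 74 genes had a peak (25.7%, against 30.9%). A peak in at least 1 p65 list was called for 58 (78.4%, against 66.2%), and 16 had none in any. The strongest was at Ndufaf3, an assembly factor of complex I, with 400.1 and 645.9 tags per 10 M in C57BL6/J and 352.1 and 432.8 in BALBc/J, the authors' own values per peak. Next came Cox5a, with 154.5 and 198.2 in C57BL6/J and 123.0 and 103.2 in BALBc/J. The strongest PU.1 peaks were at Ndufb9, with 270.5 and 217.1 in C57BL6/J (KLA, then no treatment) and 268.3 and 255.9 in BALBc/J. Sdhd carried strong C/EBPa peaks, with 125.8 and 132.3 in C57BL6/J (KLA, then no treatment) and 151.6 and 159.6 in BALBc/J. Ndufaf3, Cox5a and Ndufb9 were named after their values were seen.

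**Figure D2:**
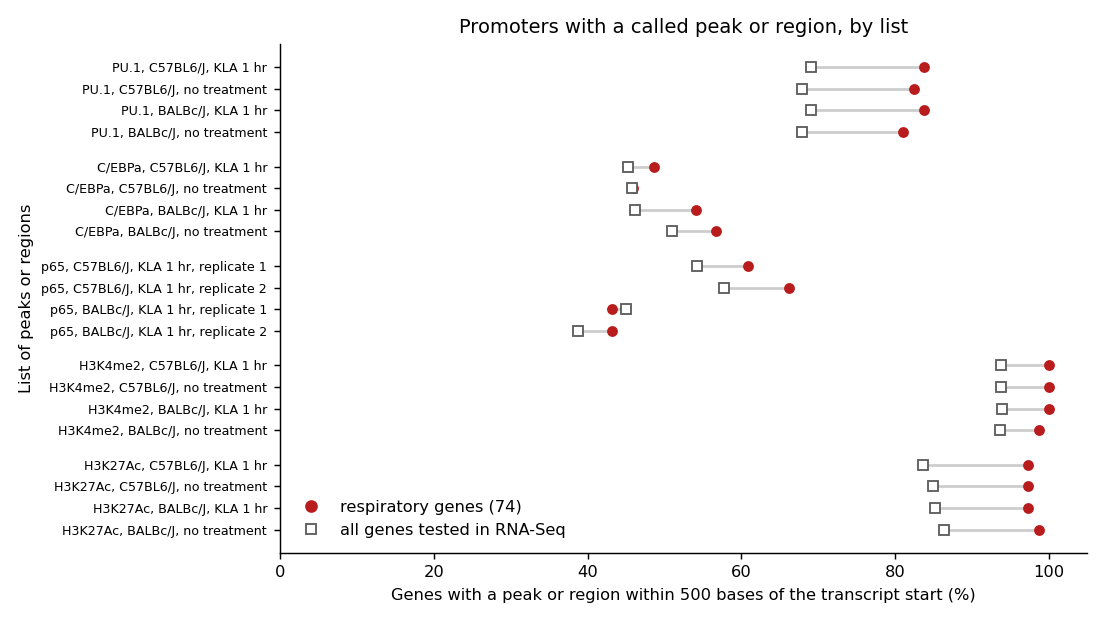
Share of promoters with a called peak or region within 500 bases of the transcript start (%), in each of the 20 lists, with red circles for the 74 respiratory genes and open squares for the 10692 genes tested in RNA-Seq. The red circles lie at 98.6 to 100% for H3K4me2 and at 81.1 to 83.8% for PU.1, and p65 is at 60.8 and 66.2% in C57BL6/J and at 43.2% in both BALBc/J lists.

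Promoter letters were read from RefSeq windows (GRCm38.p6, 250 bases before to 50 after a start), of which 69 belong to 63 of the 74 genes, and were searched on both strands for motifs of factors known to act on such genes. NRF1, a main activator of nuclear genes for mitochondria, was searched as GCGCANGCG. It was present in 16 of 69 windows (23.2%), against 13.7% of 10967 windows of genes tested in RNA-Seq and 6.25% of all 32851 windows. YY1 (AAGATGGCG) was present in 9 windows (13.0%, against 3.26% and 1.40%). The ETS motif CCGGAAG, bound by GABP among others, was present in 15 (21.7%, against 18.5% and 8.86%), CREB's TGACGTCA in 4 (5.80%, against 3.05% and 1.79%), the ERR motif TCAAGGTCA in 2 (2.90%, against 0.255% and 0.423%) and the CCAAT box in 29 (42.0%, against 37.2% and 37.4%). Matches of different motifs overlapped in 0 of the 69 windows. A match describes letters and is no proof of binding.

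Of these promoters 7 are shown as the 250 bases before the start, with the matched motif letters in capitals. The first 4 hold NRF1, ETS or YY1 matches, and the last 3 belong to genes that fell more than most after 4 hr of KLA.
Sdha, chr13:74350241-74350490, minus strand: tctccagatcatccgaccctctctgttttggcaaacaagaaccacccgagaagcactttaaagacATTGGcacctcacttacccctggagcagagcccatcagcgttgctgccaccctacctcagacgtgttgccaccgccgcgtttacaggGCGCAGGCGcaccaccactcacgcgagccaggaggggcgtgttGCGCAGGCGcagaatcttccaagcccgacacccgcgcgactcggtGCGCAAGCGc
Sdhd, chr9:50603850-50604099, minus strand: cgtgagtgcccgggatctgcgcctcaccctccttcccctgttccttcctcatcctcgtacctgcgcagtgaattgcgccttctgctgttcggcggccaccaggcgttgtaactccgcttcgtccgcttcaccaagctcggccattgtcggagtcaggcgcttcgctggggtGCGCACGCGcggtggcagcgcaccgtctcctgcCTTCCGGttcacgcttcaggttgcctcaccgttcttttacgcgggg
Cox6a1, chr5:115348959-115349208, minus strand: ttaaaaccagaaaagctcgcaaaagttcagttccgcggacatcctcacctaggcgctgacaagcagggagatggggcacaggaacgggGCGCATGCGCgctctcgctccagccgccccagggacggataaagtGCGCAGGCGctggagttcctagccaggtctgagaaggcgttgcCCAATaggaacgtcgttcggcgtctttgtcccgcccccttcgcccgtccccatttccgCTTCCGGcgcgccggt
Atp5j, chr16:84834977-84835226, minus strand: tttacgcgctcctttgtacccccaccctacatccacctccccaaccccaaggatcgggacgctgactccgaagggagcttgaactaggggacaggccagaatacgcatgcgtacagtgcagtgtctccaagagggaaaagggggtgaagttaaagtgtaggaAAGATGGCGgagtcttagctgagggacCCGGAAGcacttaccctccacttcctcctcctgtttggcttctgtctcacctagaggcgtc
Atp5s, chr12:69724695-69724944, plus strand: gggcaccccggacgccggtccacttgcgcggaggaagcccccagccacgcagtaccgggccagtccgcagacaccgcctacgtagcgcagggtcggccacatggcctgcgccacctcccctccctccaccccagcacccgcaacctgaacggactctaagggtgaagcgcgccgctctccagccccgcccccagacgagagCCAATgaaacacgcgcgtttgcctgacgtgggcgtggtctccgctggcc
Atp5sl, chr7:25619243-25619492, plus strand: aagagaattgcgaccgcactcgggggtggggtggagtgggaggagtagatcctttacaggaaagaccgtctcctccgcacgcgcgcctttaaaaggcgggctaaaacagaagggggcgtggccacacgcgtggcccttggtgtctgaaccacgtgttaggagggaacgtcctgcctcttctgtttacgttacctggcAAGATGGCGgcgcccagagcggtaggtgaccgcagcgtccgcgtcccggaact
Sdhaf1, chr7:30322376-30322625, minus strand: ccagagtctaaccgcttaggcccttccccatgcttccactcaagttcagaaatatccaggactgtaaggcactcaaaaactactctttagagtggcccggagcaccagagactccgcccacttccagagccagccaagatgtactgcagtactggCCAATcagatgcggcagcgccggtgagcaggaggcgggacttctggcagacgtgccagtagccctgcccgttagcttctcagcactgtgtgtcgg
Among the bases shown, the Sdha sequence holds 3 NRF1 matches and 1 CCAAT box read on the opposite strand. Sdhd holds 1 NRF1 and 1 ETS match, Cox6a1 holds 3 NRF1 matches, of which a pair overlaps, with 1 CCAAT box and 1 ETS match, and Atp5j 1 YY1 and 1 ETS match. Atp5s and Sdhaf1 hold 1 CCAAT box, and Atp5sl a YY1 match. In the last 50 bases of the searched windows, which are not shown, Sdhd has an ERR match and Sdhaf1 an ETS match. Another CCAAT box of Atp5s runs over the end of the bases shown, and the other window of Atp5sl holds a CCAAT box. The other window of Atp5j (chr16:84835626-84835875) holds no match. Peaks were counted at the mm9 start of each gene's listed transcript, which was not matched to these windows. At those starts all of these genes except Atp5sl carried H3K27Ac in 4 of 4 lists (Atp5sl in 3). There p65 was called at Sdha, Cox6a1, Atp5s and Atp5sl in 4 of 4 lists, at Sdhd and Sdhaf1 in 2 and at Atp5j in 1.

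Some of the promoters were shared with a neighbour read the other way. In mm9, 22 of the 74 genes (29.7%) had the start of another listed gene on the opposite strand, running away from them, within 1000 bases, against 14.1% of the 10692 genes. Ndufs1 and Eef1b2 start 8 bases apart, Sdhd and Timm8b 51, Sdha and Ccdc127 76, and Cox4i1 and Cox4nb 177. Both genes of this last pair carry Cox4 in the symbol, but Cox4nb encodes a subunit of a membrane complex of the endoplasmic reticulum and not of the chain.

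Changes with KLA were estimated on log2 of tags per 10 M with 10 added, with limma across all 10692 genes and strain as a term, and a gene was called at a Benjamini-Hochberg adjusted p under 0.05. After 4 hr of KLA 21 of the 74 respiratory genes fell and 0 rose (28.4% lower), against a background of 44.6% lower and 11.8% higher among all genes tested. A negative change was seen in 71 of the 74 (95.9%, against 76.4% of all genes). The median change was -0.41 in the 74 genes and -0.47 in all 10692. Without 1 of the untreated libraries the 21 became 5 (C57BL6/J) or 7 (BALBc/J), where 22.8% and 24.2% of all genes were called lower. Without a filter on low values 12 were called, against 28.1% of all genes. At least 1 log2 unit lower were 6 of the 74 (8.11%, against 21.3%) and 0 higher (against 8.1%). With each library set relative to its median gene, 4 of the 74 were lower and 0 higher (backgrounds of 20.4% and 18.6%), namely Cox4nb, Atp5s, Atp5sl and Sdhaf1, of which none is a subunit of the chain.

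By complex, complex II was called lower most often, where 44.6% of all genes were called lower. Complexes I, III and IV and the ATP synthase each had a smaller share than all genes. Sdha, Sdhb and Sdhc fell, which is 3 of the 4 genes, and Sdhd was at -0.47 ± 0.18 (SE) with adjusted p = 0.058. Complex I had 11 lower of 33, and all 33 had a negative change (median -0.47). The ATP synthase had 1 lower of 10 (median -0.27), complex III 0 of 7 (median -0.43) and complex IV 1 of 11 (median -0.09). Of the 9 genes that are no subunit 5 were lower (median -0.78). These medians describe small groups and were not tested against each other.

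**Figure D3:**
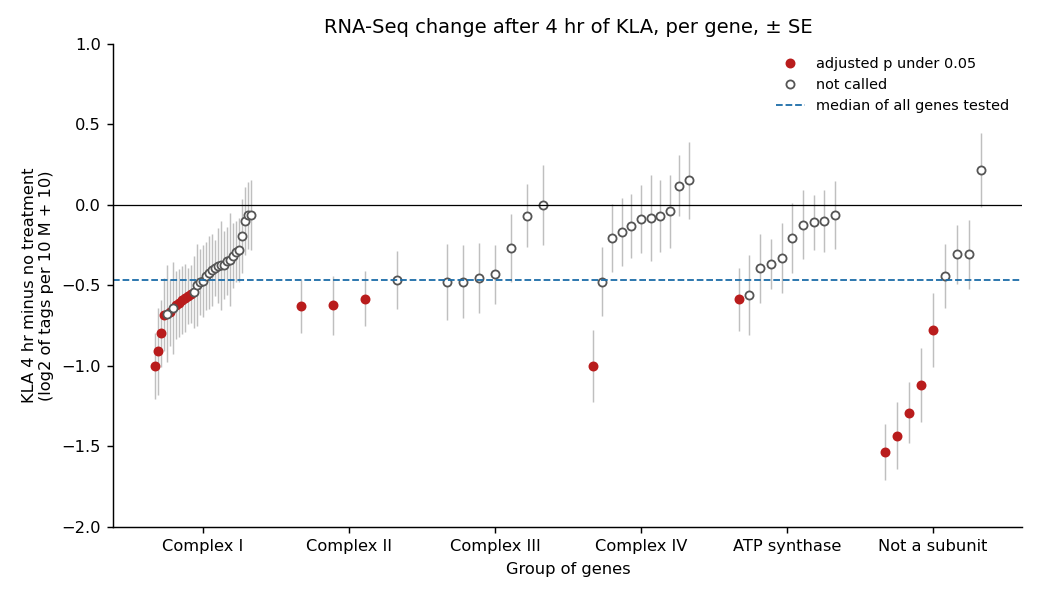
Change in RNA-Seq after 4 hr of KLA against no treatment (log2 of tags per 10 M + 10, with the standard error) for each of the 74 genes by group, filled red where adjusted p is under 0.05, with a dashed line at the median of all genes tested (-0.47). The 6 red points at or below -1.0 are Cox4nb, Atp5s, Atp5sl, Sdhaf1, Ndufa6 and Cox7a2l, and most of complex IV lies above the dashed line.

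In complex II the values of KLA 4 hr lay under those of no treatment in each of the 3 called genes, which adds nothing to their calls. Sdha was at 1393 (C57BL6/J) and 1236 (BALBc/J) tags per 10 M after 4 hr of KLA, against 2051 and 2021 with no treatment, a change of -0.63 ± 0.17 (adjusted p = 0.013). Sdhb was at 774 and 566 after KLA, against 1031 and 1020 (-0.62 ± 0.18, adjusted p = 0.020), and Sdhc at 1194 and 1067, against 1607 and 1790 (-0.58 ± 0.17, adjusted p = 0.020). Sdhd was at 1496 and 1364, against 1777 and 2197, also without overlap, a trait that was not counted over all genes. These calls were lost relative to the median gene, where the 4 changes had a median of -0.17.

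Among the complex I genes the larger falls were in accessory and core subunits alike. Ndufa6, an accessory subunit (chr15:82180568-82184721, mm9), was at 360 and 308 tags per 10 M after 4 hr of KLA in C57BL6/J and BALBc/J, against 679 and 676 with no treatment (-1.0 ± 0.21, adjusted p = 0.0045). Ndufb11, an X-linked accessory subunit, was at 78.0 and 50.6, against 142 and 114 (-0.91 ± 0.27, adjusted p = 0.021). Ndufs7, a core subunit that holds an iron-sulfur cluster (chr10:79712196-79719537), was at 279 and 214, against 428 and 438 (-0.80 ± 0.21, adjusted p = 0.013). In all 3 the groups did not overlap, which adds no support, since they were named as called genes with 1 sign in both strains. The complex I gene with the smallest change was Ndufa7, at 62.2 and 45.4 after KLA, against 51.8 and 60.3 (-0.06 ± 0.22).

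Complex IV and the ATP synthase had the median changes nearest to 0. Cox7a2l, which is known for joining complexes III and IV into supercomplexes rather than as a core subunit (chr17:83901256-83913673), was the 1 complex IV gene that fell, at 107 and 81.1 tags per 10 M after 4 hr of KLA, against 189 and 204 (-1.0 ± 0.22, adjusted p = 0.0065). Its relative Cox7a2, a subunit, was at 371 and 253 after KLA, against 241 and 313, so that its groups overlapped (0.15 ± 0.24). Cox4i1 was at 3608 and 2683, against 4597 and 4084 (-0.48 ± 0.22, adjusted p = 0.092). Cox6a1 was at 1025 and 841, against 926 and 1180, Cox6b1 at 534 and 372, against 412 and 511, and Cox8a at 491 and 380, against 391 and 525. In these 3 genes C57BL6/J was higher and BALBc/J lower after KLA than with no treatment. Atp5g3 was at 1793 and 1383, against 1614 and 1769 (-0.10 ± 0.19). Atp5c1 was the 1 synthase gene that fell, at 155 and 129, against 205 and 232 (-0.59 ± 0.20, adjusted p = 0.034).

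The largest falls were in genes outside the enzymes. Cox4nb (chr8:123177813-123192012, minus strand) was at 693, 485 and 232 tags per 10 M with no treatment, 1 hr and 4 hr of KLA in C57BL6/J, and at 596, 465 and 198 in BALBc/J. The change at 4 hr was -1.54 ± 0.17 (adjusted p = 0.00024), while Cox4i1 across the shared promoter was at -0.48. Atp5sl (chr7:26404511-26410569), a relative of Atp5s known in human cells for the assembly of complex I, was at 170, 117 and 69.1 in C57BL6/J and at 199, 149 and 69.6 in BALBc/J over the same times (-1.29 ± 0.19 at 4 hr, adjusted p = 0.00093). Both genes stepped down at each time in both strains. Atp5s (chr12:70825948-70845645), which encodes the synthase's coupling factor B, was at 16.3 and 17.8 after 4 hr of KLA, against 76.0 and 52.0 (-1.43 ± 0.21, adjusted p = 0.00092). Sdhaf1 (chr7:31106427-31107394), needed to fit iron-sulfur clusters into Sdhb, was at 75.0 and 60.4, against 147 and 171 (-1.12 ± 0.23, adjusted p = 0.0045). Ndufaf1, an assembly factor of complex I, was at 83.4 and 75.9, against 121 and 170 (-0.78 ± 0.23, adjusted p = 0.021). Ndufaf3 was at 126 and 96.6, against 80.7 and 109, the most positive change of the 74 at 0.22 ± 0.23 and not called.

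Further genes of mitochondrial energy supply were read from lists chosen with earlier results of these data known. Of 30 tested assembly factors and accessory genes with other names, 13 fell and 2 rose after 4 hr of KLA, against the 44.6% lower and 11.8% higher of all genes. Relative to the median gene 1 was lower and 4 were higher, against 20.4% lower and 18.6% higher of all genes. Those that rose were Cox18, which inserts a complex IV subunit into the membrane, at 1.06 ± 0.19 (adjusted p = 0.0027), and Sco1, a copper chaperone of complex IV, at 0.84 ± 0.18 (adjusted p = 0.0060). The strongest fall was in Tmem126b, of complex I assembly, at -1.34 ± 0.21 (adjusted p = 0.0013). Of 14 tested genes of the citric acid cycle and its entry 6 fell and 0 rose, against the same 44.6% and 11.8%. Relative to the median gene 0 were lower and 2 higher, against the same 20.4% and 18.6%. Idh3g was the lowest at -0.83 ± 0.20 (adjusted p = 0.0088), while citrate synthase (Cs) was at 0.33 ± 0.21. Of 16 tested regulators 3 rose and 4 fell, against 11.8% higher and 44.6% lower of all genes. With libraries centred on the median gene the calls were 5 higher and 1 lower, against 18.6% and 20.4%. Hif1a, whose protein drives glycolytic genes, was at 4786 and 5729 tags per 10 M after 4 hr of KLA in C57BL6/J and BALBc/J, against 1544 and 1955 with no treatment (1.59 ± 0.17, adjusted p = 0.00019). Nrf1, Tfam and Gabpa were at 0.30, 0.30 and -0.07 and were not called. Yy1 was called lower (-0.53 ± 0.19, adjusted p = 0.046), near the median change of all genes tested (-0.47).

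After 1 hr of KLA none of the 74 genes was called in either direction by limma, against a background of 2% higher and 2.13% lower, and 3 (4.05%) had an unadjusted p under 0.05, against 23.1% of all genes. The median change was 0.07 in the 74 genes and -0.21 in all genes tested. Of the 74, 42 were positive (56.8%, against 24.7%). Cox7a2 had the largest positive value of the complex IV group (0.52 ± 0.24, adjusted p = 0.24 by limma). It was at 376 and 423 tags per 10 M after 1 hr of KLA in C57BL6/J and BALBc/J, against 241 and 313 with no treatment. Complex IV had a median change of 0.27, complex III of 0.13, complex I of 0.07, the ATP synthase of -0.03, complex II of -0.13 and the genes that are no subunit of -0.25.

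Nascent transcription after 1 hr of KLA was read from 43 of the 74 genes. By limma 2 fell and 0 rose (4.65% lower, against 23% lower and 5.49% higher among 9110 genes). At least 1 log2 unit lower or higher were 0 of the 43, against 15.5% and 4.31%. They were again Atp5sl, at 16.3 and 21.3 tags per 10 M after KLA in C57BL6/J and BALBc/J, against 50.6 and 38.7 (-0.92 ± 0.32, adjusted p = 0.019), and Cox4nb, at 42.5 and 74.7, against 119 and 103 (-0.86 ± 0.35, adjusted p = 0.049). Relative to the median gene 11 of the 43 were higher and the same 2 lower (25.6% and 4.65%, against 26.6% and 26.7%), since the median of all genes fell by 0.34 on the log2 scale. The 11 included 5 ATP synthase genes, among them Atp5f1 at 0.81 and Atp5b at 0.55 relative to that median. Without relation to it, Atp5f1 was at 39.7 and 68.7 tags per 10 M after KLA, against 33 and 38.1, and Atp5b at 104 and 115, against 102 and 85.7. Cox4i1, across the promoter from Cox4nb, was at 31.2 and 40.5, against 45.5 and 42.4, and was not called (-0.24).

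The median response of the genes was not alike in the 2 strains, and the same difference varied with transcript length over all genes tested. Within C57BL6/J the median RNA change of the 74 genes was -0.05 at 1 hr and -0.24 at 4 hr of KLA, and within BALBc/J 0.16 and -0.61. In C57BL6/J 53 of the 74 and in BALBc/J 73 had a lower value after 4 hr than with no treatment, whether called or not. Of all 10692 genes 7948 in C57BL6/J and 7995 in BALBc/J did so. With 1 library for each strain and time the difference between the strains has no replicate check. By limma at an adjusted p under 0.05, 56 of the 74 genes were called lower after 4 hr without the C57BL6/J library of KLA 4 hr (against 51.4% of all genes), and 15 without the BALBc/J one (against 52%). In GRO-Seq the medians of the 43 genes at 1 hr were -0.40 in C57BL6/J and 0.15 in BALBc/J, while those of all genes were -0.58 and -0.10, and the C57BL6/J KLA library had the lowest share of exon tags, 7.39%, against 8.98 to 9.83% in the others. The part of that share in the result was not tested.

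**Figure D4:**
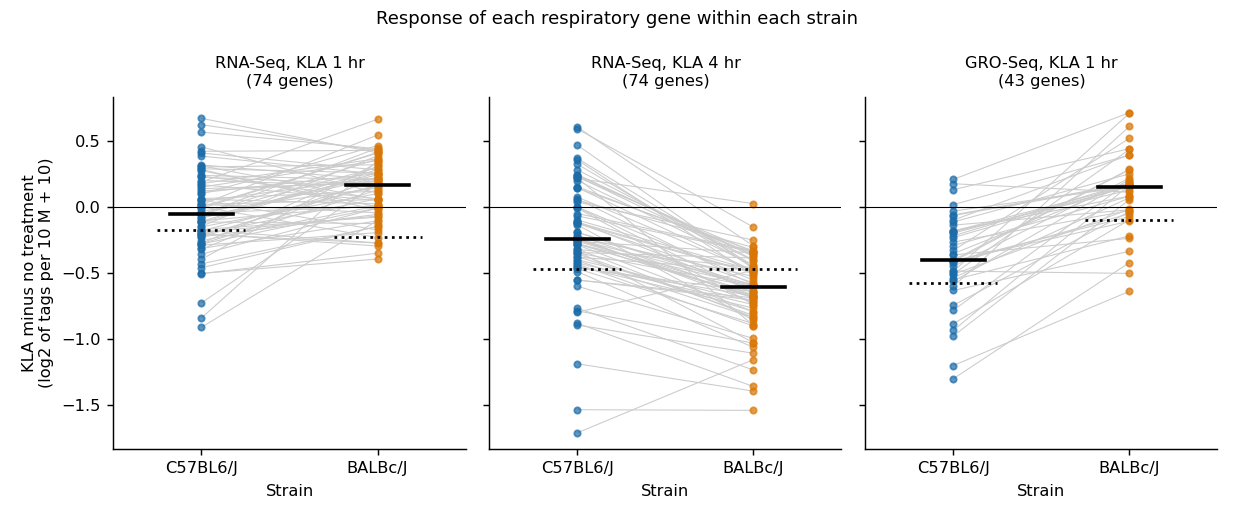
Response to KLA of each respiratory gene within each strain (KLA minus no treatment, log2 of tags per 10 M + 10), in RNA-Seq at 1 hr and 4 hr and in GRO-Seq at 1 hr, with thin lines joining a gene's 2 values, bold bars at the genes' median and dotted bars at the median of all genes tested. At 4 hr the bold bar is at -0.24 in C57BL6/J and at -0.61 in BALBc/J, while the dotted bars are both at -0.47.

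Between the strains, over all 3 treatments together, none of the 74 genes was called in RNA-Seq by limma, against a background of 2.71% higher and 5.89% lower in C57BL6/J, with 2 of the 74 (2.7%) at an unadjusted p under 0.05, against 20.4% of all genes. The nearest was Ndufa12, a complex I accessory subunit, at 64.2, 61.2 and 53.3 tags per 10 M with no treatment, 1 hr and 4 hr in C57BL6/J, and at 101, 142 and 67.3 in BALBc/J (-0.65 ± 0.19, adjusted p = 0.081). It is also 1 of the 6 genes after which RefSeq names a pseudogene. Ndufa3 lay the other way, at 409, 376 and 357 in C57BL6/J and at 280, 337 and 179 in BALBc/J (0.55 ± 0.18, adjusted p = 0.12). Both kept their sign at all 3 treatments. In GRO-Seq 0 of the 43 genes were called (backgrounds of 0.45% higher and 0.538% lower) and 2 (4.65%) had an unadjusted p under 0.05, against 7.38%. Relative to the median gene 2 were lower and 0 higher in C57BL6/J, against 4.41% and 9.15%. After KLA all 43 were lower in C57BL6/J than in BALBc/J, as were 8055 of the 9110 genes tested. The median difference was -0.68 in the 43, against -0.43 in all genes.

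The genes as a group changed sides between the 2 KLA times. The median difference, C57BL6/J minus BALBc/J, was -0.11 with no treatment, -0.28 at 1 hr and 0.34 at 4 hr of KLA, and 21, 7 and 68 of the 74 genes were positive. Over all genes tested the medians were -0.09, -0.06 and -0.12, and 36.1%, 43.7% and 39.9% of the genes were positive. The 74 transcripts were short, with a median of 758 bases against 2844 in all genes tested. Among all genes under 600 bases the strain difference was -0.09, -0.24 and 0.30 at the same times (n = 180), and among those of 3000 bases and over it was -0.05, 0.09 and -0.36 (n = 4974). The 26 respiratory genes under 600 bases had -0.02, -0.41 and 0.36. Strain, library and transcript length cannot be told apart here, with 1 library each. With each library centred within classes of transcript length, an alternative added after seeing the data, 8 of the 74 genes were lower and 4 higher after 4 hr of KLA (10.8% and 5.41%, against 24.6% and 25.2%). The 8 were Cox4nb, Atp5s, Atp5sl, Sdhaf1, Ndufa6, Cox7a2l, Ndufb11 and Ndufs7, and the 4 were Ndufaf3, Cox7a2, Uqcrc2 and Atp5b. Between the strains Ndufa12 was then lower (-0.62, adjusted p = 0.018) and Ndufa3 (0.58, adjusted p = 0.012) and Ndufa13 (0.43, adjusted p = 0.040) higher in C57BL6/J, against 6.92% lower and 6.49% higher over all genes.

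**Figure D5:**
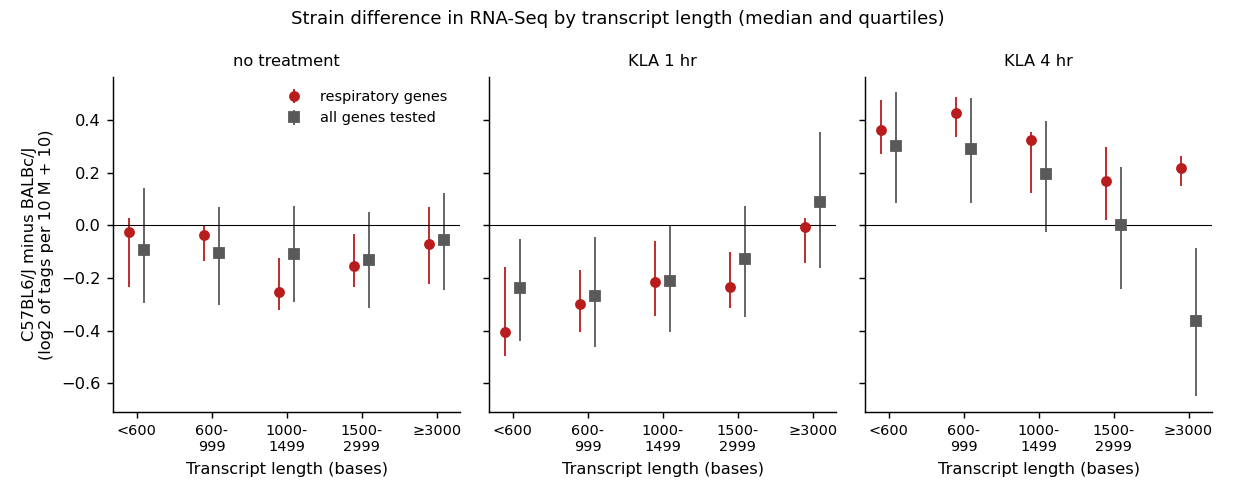
Strain difference in RNA-Seq (C57BL6/J minus BALBc/J, log2 of tags per 10 M + 10) by transcript length class and treatment, as median with quartiles, with red circles for the respiratory genes and grey squares for all genes tested. Under 600 bases the medians of respiratory genes and of all genes are -0.41 and -0.24 at KLA 1 hr and 0.36 and 0.30 at KLA 4 hr, and the class of 3000 bases and over holds 3 respiratory genes.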

How the data were processed

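Expression came from 1 deposited table of RNA-Seq and GRO-Seq exon tags per transcript and binding from 20 deposited peak lists. The submitters' processing notes name Bowtie 0.12.7, HOMER and the build mm9. The table's values are log2 of 1 plus exon tags per 10 M, with a fraction of a tag below 1 added, as the deposited values show. They are not corrected for length. Peak signals are the authors' tags per 10 M at each peak (signal), and peaks were called per sample against input, per the file headers. Strand and multiple matches are not given in the sources used here.

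Whole tags were recovered from the deposited log2 values by rounding down. Genes at 20 tags per 10 M in 2 libraries of an assay were fitted with limma 3.58.1 (R 4.3.3) on log2 of tags per 10 M + 10, RNA-Seq and GRO-Seq apart, with treatment and strain as terms. The fits left 2 (RNA-Seq) and 1 (GRO-Seq) residual degrees of freedom. The fit was also run on simulated counts with 200 genes changed by known amounts. Those counts held no difference between strains and no trend with length, so the run does not check the calls made here. No label ties libraries to separate animals. With 1 library per strain and treatment, the 2 strains acted as the replicates of a treatment. In the strain comparison the treatments acted as the replicates of a strain (3 in RNA-Seq, 2 in GRO-Seq). Neither measures the spread between animals. The p-values therefore rest on how far the strains differed in their response, a spread that also holds technical error. In GRO-Seq limma took each gene's spread from a trend over all genes by level, and not from the gene's own values. Values were plotted with matplotlib 3.10.9 under Python 3.11.15, and intervals came from scipy 1.17.1. The members and lists were chosen with earlier results of these data known. Named by rule were up to 8 called genes in each direction and comparison with 1 sign in every pair of libraries, the tissue-form pairs, c subunits and complex II, and the highest and lowest gene of a complex. Alternatives were other pseudocounts, filters, scalings and calls, no strain term, each library left out, and other promoter windows and peak strengths.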

Additional observations from a re-analysis of the deposited data

Results flagged for a closer look

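Some responses to KLA went opposite ways in the strains, which the single library of each strain and treatment leaves untested. All values are log2 differences, given for C57BL6/J and then BALBc/J, with C57BL6/J minus BALBc/J after them. In RNA-Seq at 1 hr the median response of the 74 genes was -0.05 and 0.16 (-0.21), that of Cox4i1 -0.28 and 0.31 (-0.59), of Cox6a1 -0.047 and 0.0035 (-0.050) and of Cox8a 0.27 and -0.0013 (0.27).

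In RNA-Seq at 4 hr the response of Cox7a2 was 0.60 and -0.30 (0.90), of Cox6b1 0.37 and -0.45 (0.81), of Cox8a 0.32 and -0.46 (0.78), of Cox6a1 0.14 and -0.48 (0.63) and of Atp5g3 0.15 and -0.35 (0.50). In GRO-Seq at 1 hr the median response of 43 genes was -0.40 and 0.15 (-0.56), that of Cox7a2 -0.45 and 0.22 (-0.67), of Cox6b1 -0.12 and 0.25 (-0.36) and of Sdhb -0.20 and 0.15 (-0.35). None of these differences was tested.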

How the results depend on the processing

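No paired analysis was possible because the replicate numbers that groups share belong to p65, of which no test was made. Of the 21 genes lower after 4 hr of KLA, 12 were called without a filter on low values, 4 relative to the median gene, 6 with a log2 change of 1 or more required and 8 with libraries centred within classes of transcript length (an alternative added after seeing the data), which also called 4 genes higher. The lower calls of these 4 alternatives were all among the 21. Leaving out 1 library gave 5 to 56 lower and 0 to 2 higher, where 22.8 to 52% of all genes were lower. The median change of the 74 genes at 4 hr was 0.017 relative to the median gene, -0.032 with length classes and -0.68 to -0.15 with 1 library left out. At 1 hr the median was 0.28 relative to the median gene and -0.16 to 0.27 with 1 library left out, and 0 to 5 genes were higher and 0 to 3 lower. Between the strains length classes gave 2 higher and 1 lower, and leaving out 1 library 0 to 1 higher and 0 to 7 lower.

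In GRO-Seq the 2 genes lower after KLA became 1 with a pseudocount of 2 or with no strain term, and 0 with the stricter filter or the threshold of 1. Relative to the median gene 11 were higher, with length classes 3 were higher and 2 lower (against 22.4% and 23.7% of all genes), where Cox4nb was no longer called (adjusted p = 0.097 by limma, the highest of 0.0037 to 0.097 over its alternatives) and Ndufb9 was (-0.51, adjusted p = 0.016), and between the strains 2 were lower relative to the median gene. Leaving out a GRO-Seq library left no residual degree of freedom, so no calls could be had. Their member medians were then -0.41 to 0.15 for KLA and -0.68 to -0.14 between strains. The cause of these changes was not tested.

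Promoters with a peak in at least 1 list made up 93.2% (PU.1), 75.7% (C/EBPa), 78.4% (p65), 100% (H3K4me2) and 100% (H3K27Ac) of the 74, against 79.1%, 65.4%, 66.2%, 95.2% and 90.0% of the 10692 genes in that order. With the start inside the peak the shares were 66.2% (PU.1), 55.4% (C/EBPa) and 62.2% (p65), against 45.0%, 35.9% and 36.8%, and with the stronger 50% of each list 60.8% (PU.1), 25.7% (C/EBPa), 39.2% (p65) and 90.5% (H3K27Ac), against 53.5%, 30.7%, 37.6% and 75.5%, so that C/EBPa was below the share of all genes. Genes called lower after KLA (21 in RNA-Seq at 4 hr, 2 in GRO-Seq) kept their sign under the alternatives run. Of the 53 genes not called at 4 hr, 35 changed sign relative to the median gene and 31 with length classes, among them Atp5g3 (0.24 with length classes) and Ndufa7 (0.29).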

Other observations

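Among 16 regulators of mitochondrial genes, Myc, a transcription factor of growth, was higher after 1 hr of KLA in RNA-Seq (2.36 ± 0.24 on the log2 scale, SE, adjusted p = 0.0012 by limma) and stood at -0.07 ± 0.24 after 4 hr. Peo1, the helicase that unwinds mitochondrial DNA, was lower at 1 hr (-1.01 ± 0.20, adjusted p = 0.031) and at 4 hr (-1.80 ± 0.20, adjusted p = 0.00020). In GRO-Seq after 1 hr of KLA Ppargc1b, a coactivator of such genes, was lower (-1.46 ± 0.28, adjusted p = 3.3e-06), while its RNA-Seq change at 1 hr was -0.01 ± 0.23. These genes were named after their values were seen.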
